A study of Arabidopsis thaliana with 12 samples.

Results

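The comparison was of an Arabidopsis thaliana line labelled as an S1 bZIP knockdown against its own wild type, both of ecotype Col-0. Its members were the 3 libraries titled for the knockdown with Est and the 3 titled for the wild type of the S1 experiment, 6 of 12 libraries in the series, with every gene of their raw count tables. The genotype label gives the line knockout alleles of bZIP1 and bZIP53, and a knockdown of the group bZIP2/-11/-44 that is inducible. For its wild type no transgene is named. The other 6 libraries are a SnRK1 line, given as a snrk1-alpha-1 knockout with an inducible snrk1-alpha-2 knockdown, and a wild type of its own. Seedlings of the S1 line and of its wild type grew for 14 d, then for 5 d more without Est and 1 d with it, while the SnRK1 line and its wild type had Est for 6 d. Every plant was 3 weeks old at harvest, which came after a night prolonged by 6 h, so every library used here is from darkness and Est, and the response to either was not measured. The labels name neither the promoter nor the cells that drive the inducible construct, nor the number of independent plant lines. The series set out to find starvation-responsive genes under the control of SnRK1 and the S1 bZIPs.

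The S1 bZIPs are basic leucine zipper transcription factors that bind DNA as dimers, mostly with bZIPs of group C. Several of them are held back by sucrose at the level of translation, so they are known as factors of carbon shortage. SnRK1 is the plant relative of the yeast Snf1 and animal AMP-activated kinases, and acts on the C and S1 network when energy is low. In leaves kept dark, this network is known for genes that break down proline and branched-chain amino acids, make asparagine, and turn over trehalose and inositol.

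Dimers of this network bind ACGT-core elements such as the G-box, CACGTG, and in the proline dehydrogenase gene the element ACTCAT. The 250 bases before the annotated start of the gene are shown for ERD5, the proline dehydrogenase gene, and for AT4G37220 and MIOX4. AT4G37220 and MIOX4 were among the genes with the largest falls outside the targeted loci. The sequences are read on the gene's strand from RefSeq's TAIR10.1 assembly, at chr3:12451557-12451806 on the minus strand for ERD5, chr4:17514792-17515041 on the plus strand for AT4G37220 and chr4:13297445-13297694 on the plus strand for MIOX4. Capitals mark CACGTG in AT4G37220, 137 bases before the start, and the reverse complement of ACTCAT in ERD5, 24 bases before the start. Whether this match in ERD5 is the element known in that gene was not tested.
ERD5: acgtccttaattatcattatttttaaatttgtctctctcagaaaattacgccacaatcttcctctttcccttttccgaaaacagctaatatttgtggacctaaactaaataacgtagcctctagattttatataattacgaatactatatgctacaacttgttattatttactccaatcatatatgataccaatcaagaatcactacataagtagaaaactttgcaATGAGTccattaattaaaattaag
AT4G37220: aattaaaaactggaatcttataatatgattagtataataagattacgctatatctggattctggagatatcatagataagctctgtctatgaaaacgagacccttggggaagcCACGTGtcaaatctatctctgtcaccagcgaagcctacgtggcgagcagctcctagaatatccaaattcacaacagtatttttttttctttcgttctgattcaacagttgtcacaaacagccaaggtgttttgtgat
MIOX4: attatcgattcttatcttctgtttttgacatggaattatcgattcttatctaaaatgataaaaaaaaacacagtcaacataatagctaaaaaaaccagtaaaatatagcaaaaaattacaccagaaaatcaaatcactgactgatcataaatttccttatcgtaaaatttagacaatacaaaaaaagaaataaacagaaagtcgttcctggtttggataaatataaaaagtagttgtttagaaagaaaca
The search covered both strands for ACTCAT, for the G-box CACGTG, for the C-box core GACGTC, for the hybrid element GACGTG and for the core ACGT, which the preceding 3 contain. The MIOX4 window holds none of them.

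Library totals were 8598928, 5421722 and 6794219 counts in the S1 line and 7762138, 4721350 and 5563168 in its wild type. Of 28775 genes in the tables, 18388 had enough counts to be tested. Levels are counts scaled to a common library size with TMM factors (trimmed mean of M values), written CPM, and log2 fold changes are S1 line over wild type with their standard error from edgeR's quasi-likelihood test. Genes are called where that test's p, adjusted over all genes by Benjamini-Hochberg, is under 0.05. No label ties the replicates to separate cultures, and the p-values therefore cover the spread between these samples alone, which may be technical. The first principal component of the 6 libraries held 38.8% of the variance, with S1 line libraries at 22.4 to 31.8 and wild-type libraries at -37.1 to -10.3. Wild-type replicate 3 stood apart on the second, at -33.6 against 16.0 and 27.0 for the other wild-type libraries. The summed level of root markers overlapped between the groups, at 303, 370 and 229 CPM in the S1 line and 293, 242 and 341 CPM in the wild type, and 0 of the 6 tested were called by edgeR, DESeq2 or limma-voom or had an unadjusted p under 0.05. None of 6 seed storage markers and 1 of 7 flower markers had enough counts to be tested. In whole seedlings, fewer cells of a type and less RNA per cell cannot be told apart.

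The transcripts of 2 of the 5 targeted genes were lower in the S1 line, where 0.952% of all genes tested were lower, and those of the other 3 were not shown to be. bZIP1 (AT5G49450) had 148, 113 and 174 counts in the S1 line against 960, 603 and 595 in wild type. Every S1 line library was below every wild-type library, and the fitted level was 16.3% of that in wild type, a log2 fold change of -2.62 ± 0.18 (adjusted p = 3.00e-07). bZIP53 (AT3G62420) had 125, 99 and 109 counts in the S1 line and 511, 317 and 448 in wild type, again without overlap, and its fitted level was 21% of wild type. Both loci carry the label of a knockout, yet reads still mapped to them. Each has the same counts as another locus in the table, AT5G49448 and AT3G62422, which are listed among the genes lower in the S1 line. The other targeted genes, bZIP2, bZIP11 and bZIP44, likewise share their counts with AT2G18162, AT4G34588 and AT1G75388.

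For bZIP2 (AT2G18160), labelled as under inducible knockdown, the counts were 487, 401 and 450 in the S1 line and 444, 313 and 307 in wild type. The groups overlapped once depth was taken into account, and the log2 fold change of 0.01 had a 95% interval of -0.25 to 0.28. A fall of the bZIP2 transcript was thus not seen, and its protein was not measured. The S1 line here is the line labelled as a knockdown, and each direction below refers to that label. bZIP11 (AT4G34590) gave 14, 6 and 5 counts in the S1 line and 9, 5 and 9 in wild type, too few to show a fall, with an interval of -1.0 to 0.59 around a log2 fold change of -0.20. bZIP44 (AT1G75390) gave 13, 15 and 10 counts in the S1 line and 8, 2 and 7 in wild type, with a log2 fold change of 0.85 and an interval of -0.10 to 1.80. Per depth every S1 line library was above every wild-type library for bZIP44, and bZIP11 overlapped.

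**Figure D1:**
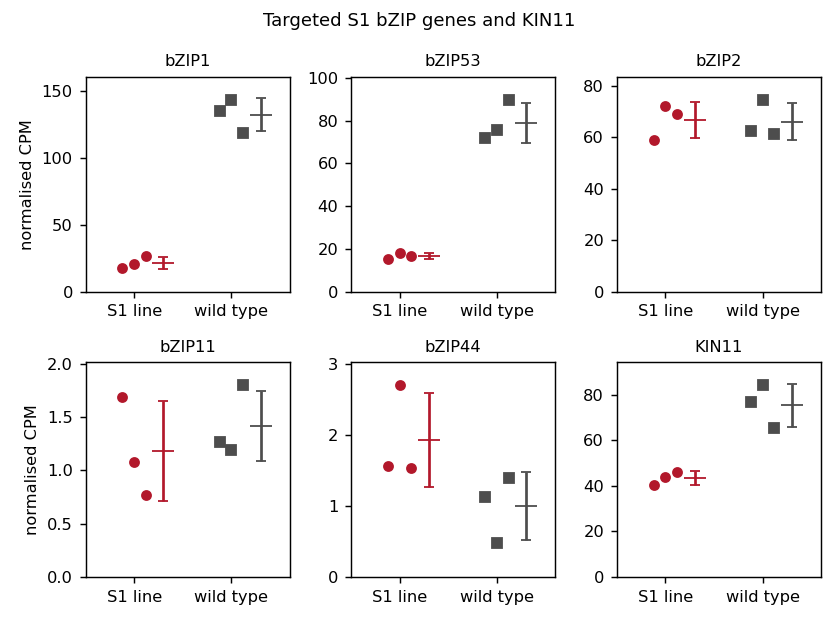
Normalised CPM of the 5 targeted S1 bZIP genes and KIN11, by library, in the S1 line (circles, left) and its wild type (squares, right), with the mean and SD of n = 3 beside the points. The points of bZIP1, bZIP53 and KIN11 are lower in every S1 line library and those of bZIP44 higher, while those of bZIP2 and bZIP11 overlap.

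The C group partners were not called: bZIP9, BZO2H1, bZIP25 and BZO2H3 had log2 fold changes of -0.10 to 0.26. By edgeR 0 of these 4 were called, as by DESeq2 and limma-voom, and 1 had an unadjusted p under 0.05. Of 9 genes of the SnRK1 complex and its activating kinases, 1 was called. KIN11 (AT3G29160), the second SnRK1 catalytic subunit, had 40.3, 44.0 and 46.1 CPM in the S1 line and 76.8, 84.2 and 65.4 CPM in wild type. All 3 S1 line libraries were lower, with a log2 fold change of -0.80 ± 0.16 (adjusted p = 0.0135), although the line's labels name no SnRK1 allele. The call was lost without wild-type replicate 2, S1 line replicate 1 or S1 line replicate 2, with an adjusted p up to 0.0755 over the settings tried. KIN10, the first catalytic subunit, stood at -0.26 on the log2 scale (adjusted p = 0.27).

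Over all genes, 299 of 18388 were higher in the S1 line (1.63%) and 175 were lower (0.952%), 2.58% in either direction. An unadjusted p under 0.05 was met by 2992 of the 18388. Counts of list members that were called, or that met an unadjusted p under 0.05, are to be read against these shares. The 175 include the 2 pairs of loci with identical counts, so 173 are distinct. At least 2-fold differences were met by 149 of the higher and 59 of the lower genes, and at an adjusted p under 0.01 there were 91 higher and 43 lower. The median log2 fold change was 1.00 in the genes called higher and -0.83 in those called lower. In all 474 called genes the libraries of the groups did not overlap, as in 11.6% of genes tested with the S1 line above wild type and 12% with it below. Exons of 122 called genes overlap those of another annotated gene, and reads of such a pair cannot be told apart without their strand.

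The balance of directions depended on the scaling. Higher genes were 63.1% of calls under TMM and 84.5% under library totals alone, with 558 higher (3.03% of genes tested) and 102 lower (0.555%), as that scaling moved the median log2 fold change of all genes from -0.003 to 0.11. TMM factors were 0.962 to 1.03 in the S1 line and 0.892 to 0.917 in wild type. The 10 most abundant genes of a library held 9.49% to 10.8% of counts in the S1 line and 11.2% to 13.6% in wild type. Over all genes DESeq2 called 337 higher (1.94% of those given an adjusted p) and 214 lower (1.23%), and limma-voom 263 (1.43%) and 171 (0.93%). Without a filter on low counts edgeR called 437 higher (1.79%) and 259 lower (1.06%), and on the 6 libraries alone 578 (3.54% of 16323) and 451 (2.76%). Counts of calls fell when 1 library was left out: to 91 higher and 49 lower without wild-type replicate 2, 108 and 61 without wild-type replicate 3, and 108 and 39 without S1 line replicate 2. Without S1 line replicate 1 there were 190 higher and 122 lower, and without S1 line replicate 3 there were 221 and 63.

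**Figure D2:**
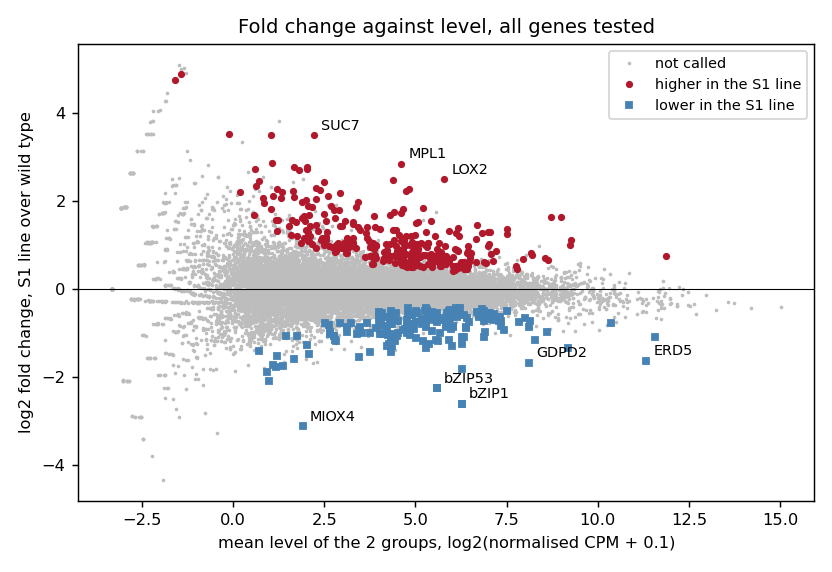
Log2 fold change, S1 line over wild type, against the mean level of the groups as log2(normalised CPM + 0.1) for all 18388 genes tested, with called genes in colour. The 299 higher genes (circles) and 175 lower genes (squares) lie across the range of levels, and MIOX4, bZIP1 and bZIP53 mark the lower edge of the called genes.

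In amino acid breakdown outside the branched-chain route, a proline gene and a tyrosine gene were lower in the S1 line. ERD5 (AT3G30775, proline dehydrogenase, the first enzyme of proline breakdown in mitochondria) had 1186, 1197 and 1365 CPM in the S1 line and 4082, 4154 and 3384 CPM in wild type. The S1 line libraries lay close together and far below the wild type, with a log2 fold change of -1.63 ± 0.22 (adjusted p = 0.000810). HGO (AT5G54080, homogentisate dioxygenase, which opens the ring in tyrosine breakdown) had 316, 305 and 368 CPM in the S1 line and 883, 891 and 738 CPM in wild type. It was lower in each S1 line library, with a log2 fold change of -1.34 ± 0.19 (adjusted p = 0.00122), with 27.4% of its exon length overlapped by another gene. HGO is 1 of 6 neighbouring genes on chromosome 5 that were lower, a stretch whose DNA was not tested. ERD5 and HGO were called in every setting they were tested in. They were the only 2 of 21 members of that list called, and 0 were higher. Of all genes tested, 0.952% were lower and 1.63% higher. The list's median log2 fold change was -0.26 against -0.003 for all genes, with 9 members at an unadjusted p under 0.05. DESeq2 called 3 lower and 0 higher, and limma-voom 3 and 0.

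The other enzymes of the tyrosine route were not called. TAT7, a tyrosine aminotransferase, stood at -0.51 on the log2 scale (adjusted p = 0.15). HPD, the enzyme that makes homogentisate, stood at -0.23 (adjusted p = 0.61), and FAH, the last enzyme, at -0.07. P5CDH, the second enzyme of proline breakdown, had -0.39 (adjusted p = 0.12). LKR, the first enzyme of lysine breakdown, had 571, 735 and 906 CPM in the S1 line and 778, 558 and 358 CPM in wild type, groups that overlapped.

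In branched-chain amino acid breakdown, 2 of 19 genes tested were lower and 1 was higher, with a median log2 fold change of -0.21. Of all genes tested, 0.952% were lower and 1.63% higher. DIN3 (AT3G06850), the acyltransferase subunit of the branched-chain ketoacid dehydrogenase, had 165, 184 and 221 CPM in the S1 line and 410, 413 and 465 CPM in wild type. All S1 line libraries were below wild type, with a log2 fold change of -1.18 ± 0.25 (adjusted p = 0.0189). ALDH6B2 (AT2G14170), the methylmalonate semialdehyde dehydrogenase of valine breakdown, had 173, 192 and 222 CPM in the S1 line and 361, 347 and 361 CPM in wild type. Its groups also did not overlap, with a log2 fold change of -0.87 (adjusted p = 0.0226). D2HGDH, a mitochondrial 2-hydroxyglutarate dehydrogenase that feeds electrons to the same electron transfer chain, was higher, by 0.66 on the log2 scale (adjusted p = 0.0434).

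These 3 calls were sensitive to single libraries. That of DIN3 held without wild-type replicate 1 or S1 line replicate 3 but not without any other library (adjusted p up to 0.109). That of ALDH6B2 held only without S1 line replicate 3 (up to 0.12), and that of D2HGDH only without wild-type replicate 1 or S1 line replicate 1 (up to 0.2). Without wild-type replicates 2 or 3, or S1 line replicate 2, 0 of the 19 genes were called by edgeR, and without S1 line replicate 1 only 1 was, D2HGDH. Without wild-type replicate 1, 1 was lower and 1 higher, and without S1 line replicate 3, 2 were lower and 0 higher. DESeq2 called 5 lower and 1 higher, limma-voom 2 and 0. When the 6 libraries of the S1 experiment were fitted alone, 7 were lower and 1 higher, in a fit that called 2.76% of all genes lower. Among the members not called, MCCA, a subunit of methylcrotonyl-CoA carboxylase, had 774, 902 and 997 CPM in the S1 line and 1600, 1651 and 1451 CPM in wild type, a log2 fold change of -0.81 (adjusted p = 0.13).

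Of 8 genes named in the literature as targets of C and S1 bZIPs, 1 was lower, ERD5, and 1 was higher. Over all genes tested 0.952% were lower and 1.63% higher. The higher gene was TRE1 (AT4G24040), the enzyme that splits trehalose, with 62.6, 57.3 and 65.6 CPM in the S1 line and 46.1, 40.9 and 35.4 CPM in wild type. Its libraries did not overlap, and its log2 fold change was 0.59 ± 0.14 (adjusted p = 0.0263). The call held only without wild-type replicate 1 among the libraries left out, with an adjusted p up to 0.135. ASN1 (AT3G47340), asparagine synthetase, a long-known dark-induced target, had 5444, 4529 and 5394 CPM in the S1 line and 7535, 6605 and 6106 CPM in wild type. All 3 S1 line libraries were the lower ones, yet its log2 fold change of -0.40 ± 0.29 was not called (adjusted p = 0.54).

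BCAT2, the aminotransferase that starts branched-chain breakdown, had 361, 591 and 607 CPM in the S1 line and 645, 589 and 469 CPM in wild type, groups that overlapped, with a log2 fold change of -0.13. ETFQO, which passes electrons from branched-chain breakdown to ubiquinone, had -0.68 (adjusted p = 0.073). MIOX2, an inositol oxygenase, had -0.84 (adjusted p = 0.10), IAA3, an auxin repressor, -0.49, and GH3.3, an auxin-conjugating enzyme, 0.59. The median of the 8 was -0.44, and 5 had an unadjusted p under 0.05. DESeq2 called 3 lower and 1 higher, beside 1.23% and 1.94% of all genes. Without a filter on low counts edgeR also called 3 and 1, beside 1.06% and 1.79%. Limma-voom called 1 and 1, beside 0.93% and 1.43%. On the 6 libraries alone edgeR called 4 lower and 1 higher, beside 2.76% and 3.54%.

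**Figure D3:**
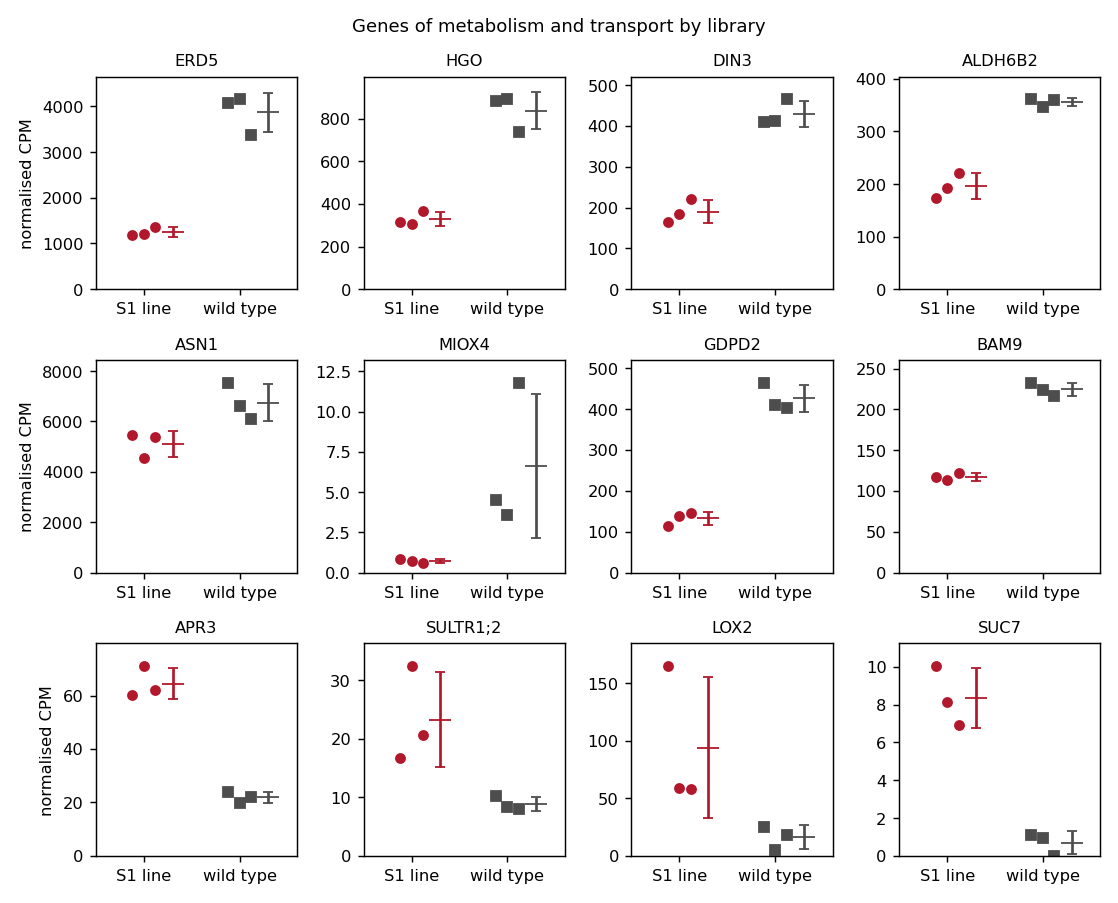
Normalised CPM by library of 12 genes of metabolism and transport in the S1 line (circles, left) and its wild type (squares, right), with the mean and SD of n = 3 beside the points. ERD5, HGO, DIN3, ALDH6B2, MIOX4, GDPD2 and BAM9 are lower in every S1 line library and APR3, SULTR1;2, LOX2 and SUC7 higher, while ASN1 did not pass the test.

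Of 14 dark-induced and starvation marker genes tested, 1 was higher and 1 lower, beside 1.63% and 0.952% of all genes tested. Their median log2 fold change was -0.09. DIN9, a mannose-6-phosphate isomerase, had 10.5, 7.57 and 8.58 CPM in the S1 line and 20.4, 17.8 and 15.6 CPM in wild type, a log2 fold change of -1.01 (adjusted p = 0.00607) that was called in every setting tried. DIN11, a 2-oxoglutarate-dependent oxygenase, had 57.0, 28.3 and 26.5 CPM in the S1 line and 16.2, 9.75 and 7.4 CPM in wild type, higher by 1.72 (adjusted p = 0.0434). S1 line replicate 1 was the highest, and the DIN11 call was lost without it, without S1 line replicate 2, without wild-type replicates 2 or 3 and by DESeq2 (adjusted p up to 0.179). Without wild-type replicate 1, 2 of the 14 were higher, beside 230 of all 18788 genes tested. DIN1, a widely used darkness marker, was at 3545, 3123 and 3408 CPM in the S1 line and 3788, 3375 and 2900 CPM in wild type, a log2 fold change of 0.00. DIN10, a raffinose synthase relative, had -0.37 (adjusted p = 0.51). The sign of the median changed to positive, 0.03, under library totals.

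Inositol genes included the largest fall outside the targeted loci. MIOX4 (AT4G26260), an enzyme that oxidises inositol to glucuronate, had 0.845, 0.721 and 0.613 CPM in the S1 line and 4.50, 3.57 and 11.8 CPM in wild type. Wild-type replicate 3 was the highest, the groups did not overlap, and the log2 fold change was -3.13 ± 0.49 (adjusted p = 0.00273), called in every setting. MIPS1 (AT4G39800), which makes inositol from glucose-6-phosphate, had 92.8, 75.5 and 80.4 CPM in the S1 line and 133, 128 and 128 CPM in wild type, lower, with a log2 fold change of -0.64 (adjusted p = 0.0178). The MIPS1 call was lost without wild-type replicates 2 or 3 or S1 line replicates 2 or 3 (adjusted p up to 0.12). Of 6 inositol genes tested, 2 were lower and 0 higher by edgeR, beside 0.952% of all genes tested lower and 1.63% higher. Their median log2 fold change was -0.66, with 4 at an unadjusted p under 0.05. DESeq2 called 3 lower, 0 higher, and limma-voom 2 and 0.

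In trehalose metabolism 1 of 18 genes tested was higher, TRE1, and 1 lower, where 1.63% of all genes tested were higher and 0.952% lower. TPPA, a trehalose phosphatase, had 12.8, 14.8 and 10.1 CPM in the S1 line and 26.3, 23.1 and 33.2 CPM in wild type, a log2 fold change of -1.14 (adjusted p = 0.00273) called in every setting that tested it. Its locus, AT5G51460, is on chromosome 5, with a code between those of bZIP1 and HGO, and its DNA was not tested. The class II trehalose phosphate synthases TPS8, TPS9, TPS10 and TPS11 had log2 fold changes of -0.20 to 0.23. In starch breakdown 2 of 19 were lower and 0 higher, against the same shares of all genes, 0.952% lower and 1.63% higher. BAM9, a beta-amylase relative, had 117, 113 and 123 CPM in the S1 line and 233, 224 and 217 CPM in wild type, lower, at -0.93 (adjusted p = 0.0315). BAM3, the main chloroplast beta-amylase, had 204, 180 and 217 CPM in the S1 line and 277, 374 and 303 CPM in wild type, lower, at -0.67 (adjusted p = 0.047). Another gene overlaps 25.2% of the exon length of BAM3.

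Both starch calls were lost in most settings without 1 library. BAM9 lost its call without any 1 of them (adjusted p 0.0752 to 0.156), and BAM3 without any but wild-type replicate 1, under library totals and by limma-voom (adjusted p up to 0.235). In that list 6 genes had an unadjusted p under 0.05, DESeq2 called 2 lower and 0 higher, and limma-voom 1 and 0. The median of the starch list was -0.11 and that of the trehalose list -0.09, and under library totals they were 0.01 and 0.03.

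In sulfate uptake and reduction, APR3, APR2, SULTR1;2, AT1G04770 and ATSDI1 were higher. Of 12 tested, 5 were higher and 0 lower, beside 1.63% of all genes tested higher and 0.952% lower. The median log2 fold change was 1.11 against -0.003 for all genes. APR3 (AT4G21990), which reduces activated sulfate, had 60.1, 71.0 and 62.0 CPM in the S1 line and 23.8, 19.7 and 22.2 CPM in wild type. Both groups were tight and far apart, with a log2 fold change of 1.54 ± 0.20 (adjusted p = 0.000798). APR2, its homolog, had 35.5, 35.8 and 38.1 CPM in the S1 line and 23.5, 16.9 and 25.2 CPM in wild type, higher by 0.73 (adjusted p = 0.0232), with 46.4% of its exon length overlapped by another gene. SULTR1;2 (AT1G78000), a sulfate uptake carrier, had 16.8, 32.4 and 20.7 CPM in the S1 line and 10.3, 8.32 and 8.0 CPM in wild type. S1 line replicate 2 was the highest, and the log2 fold change was 1.36 ± 0.26 (adjusted p = 0.00972).

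Sulfur deficiency marker genes of the tetratricopeptide repeat family were also higher. AT1G04770 had 5.31, 6.67 and 6.59 CPM in the S1 line and 2.25, 2.14 and 2.4 CPM in wild type, a log2 fold change of 1.43 (adjusted p = 0.00273), with 27.4% of its exon length overlapped by another gene. ATSDI1 (AT5G48850) had 10 counts over the S1 line libraries and 0 over those of wild type, at least 2.67-fold higher if wild type is given 3 counts over its 3 libraries, and was called at an adjusted p of 0.0476. Its call was lost without any 1 library and by DESeq2 and limma-voom (adjusted p up to 0.156), and the median of the list stayed at 1.11 with ATSDI1 at its bound. APR3 and AT1G04770 were called in every setting they were tested in. SULTR1;2 lost its call without wild-type replicates 2 or 3 or S1 line replicate 2 (up to 0.0586), and APR2 without wild-type replicate 2 or any S1 line library (up to 0.116). The list had 7 genes at an unadjusted p under 0.05, 2 to 4 higher and 0 lower when 1 library was left out, 2 without wild-type replicate 2 or S1 line replicate 2 and 3 without wild-type replicate 3 or S1 line replicates 1 or 3. DESeq2 and limma-voom each called 4 higher and 0 lower.

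The 15 highest log2 fold changes among called genes of at least 5 CPM were those of single genes from several families. SUC7 (AT1G66570), annotated as a sucrose-proton symporter, had 10.02, 8.11 and 6.89 CPM in the S1 line and 1.13, 0.951 and 0 CPM in wild type. It was the highest of the 15, with a log2 fold change of 3.49 ± 0.45 (adjusted p = 0.000753). MPL1 (AT5G14180), a lipase induced by aphids, had 42.6, 39.5 and 47.8 CPM in the S1 line and 9.85, 5.47 and 1.6 CPM in wild type, higher by 2.85 ± 0.43 (adjusted p = 0.00210). RLP22, a receptor-like protein, and AT1G51820, a leucine-rich repeat receptor kinase, were higher by 2.78 and 2.72. AT1G33030, an O-methyltransferase, was higher by 2.78 and CYP76C2, a cytochrome P450, by 2.71. CYP76C2 was not called by limma-voom (adjusted p = 0.0572), and SUC7, MPL1, RLP22, AT1G51820 and AT1G33030 were called in every setting that tested them.

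LOX2 (AT3G45140), the chloroplast lipoxygenase that starts jasmonate synthesis, had 165, 58.9 and 58.2 CPM in the S1 line and 25.5, 4.99 and 18 CPM in wild type. S1 line replicate 1 was the highest of all, the groups did not overlap, and the log2 fold change was 2.49 ± 0.60 (adjusted p = 0.0357). The LOX2 call was lost without that library, without S1 line replicate 2 or without wild-type replicates 2 or 3 (adjusted p up to 0.153). It was the 1 gene higher of 23 tested for jasmonate synthesis and response, with 0 lower and a median of 0.27. Over all genes tested 1.63% were higher and 0.952% lower. AOC2, a later enzyme of jasmonate synthesis, had 16.8, 17.3 and 13.8 CPM in the S1 line and 3.94, 3.80 and 6.20 CPM in wild type, 1.79 on the log2 scale and just past the threshold (adjusted p = 0.052). The response markers VSP1 and VSP2 had -0.56 and -0.30. DESeq2 called 3 jasmonate genes higher and limma-voom 1, each 0 lower, where they called 1.94% and 1.43% of all genes higher.

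Also among the 15 genes with the highest log2 fold changes, EARLI1, a lipid transfer protein of cold and defence responses, had 48.1, 38.0 and 20.1 CPM in the S1 line and 7.88, 6.18 and 4.60 CPM in wild type, higher by 2.48 ± 0.46 (adjusted p = 0.00820). DTX1 (AT2G04040), a MATE efflux carrier that exports toxins, had 47.9, 57.8 and 36.9 CPM in the S1 line and 14.9, 7.37 and 5.80 CPM in wild type, higher by 2.27 ± 0.30 (adjusted p = 0.000810). SQE6, annotated as a squalene monooxygenase, had 59.7, 39.5 and 32.9 CPM in the S1 line and 12.4, 8.80 and 6.4 CPM in wild type, higher by 2.23 ± 0.32 (adjusted p = 0.00138). In each of these the lowest S1 line library was above the highest wild-type library. The remaining 5 were AT1G09500 at 2.43, the noncoding AT3G29644 at 2.29, AT4G22470 at 2.24, AT1G54575 at 2.22 and M17, a late embryogenesis protein gene, at 2.17. Another gene overlaps 87.7% of the exon length of AT4G22470.

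DTX1, SQE6 and AT3G29644 were called in every setting they were tested in. EARLI1 and AT1G54575 lost their calls without wild-type replicates 2 or 3 (adjusted p up to 0.0542 and 0.0644). AT4G22470 lost its call without those or S1 line replicate 1 (up to 0.0923). M17 was not called by DESeq2, or without wild-type replicates 1 or 3 or S1 line replicates 1 or 2 (up to 0.277). AT1G09500 was called in the absence of wild-type replicate 1 but of no other library, and neither by DESeq2 nor by limma-voom (up to 0.153).

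Over all genes tested 1.63% were higher and 0.952% lower. In the list of salicylic acid and immune genes, 1 of 23 tested was higher and 0 were lower. This was WRKY18, a regulator of defence, with 9.90, 10.4 and 7.96 CPM in the S1 line and 5.49, 4.52 and 3.80 CPM in wild type, higher by 1.01 (adjusted p = 0.0113). PR1 and PR2, the classical markers of salicylic acid, had 2.29 and 1.59 on the log2 scale but were not called (adjusted p = 0.25 and 0.29). In senescence and chlorophyll breakdown 1 of 15 was higher, 0 lower, with a median of 0.50. WRKY6 had 38.0, 27.9 and 20.8 CPM in the S1 line and 14.6, 15.5 and 14.2 CPM in wild type, higher by 0.98 (adjusted p = 0.0243). The chlorophyll breakdown enzymes PPH and PAO had 0.55 and 0.50 (adjusted p = 0.07 and 0.09). AOX1A, the alternative oxidase of mitochondria, had 19.9, 25.4 and 25.7 CPM in the S1 line and 16.9, 10.7 and 12.0 CPM in wild type, higher by 0.81 (adjusted p = 0.0173).

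WRKY18 lost its call without wild-type replicates 2 or 3 or S1 line replicate 2 (adjusted p up to 0.0666), and AOX1A without those or S1 line replicate 3 (up to 0.0944). WRKY6 kept its call without S1 line replicate 3 but lost it without each other library (up to 0.104). DESeq2 called 2 genes higher in the immune list and 2 in the senescence list, limma-voom 1 in each, and both tools 0 lower. Over all genes DESeq2 called 1.94% higher and limma-voom 1.43%. Without S1 line replicate 3, edgeR called 4 immune genes higher, beside 221 of all 18795 genes tested. When only the 6 libraries of the S1 experiment were fitted, 8 of the 15 senescence genes were higher and 0 lower, in a fit that called 3.54% of all genes higher. Under library totals 5 of the 15 were higher, beside 3.03% of all genes, and without a filter on low counts 4, beside 1.79%.

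Among the 15 genes with the lowest log2 fold changes, GDPD2 (AT5G41080), a glycerophosphodiester phosphodiesterase that releases glycerol phosphate from lipid head groups, had 114, 139 and 145 CPM in the S1 line and 464, 410 and 403 CPM in wild type. The groups were far apart, with a log2 fold change of -1.69 ± 0.25 (adjusted p = 0.00179), called in every setting. AT4G37220, a member of the WCOR413 cold acclimation family, had 26.9, 36.2 and 40.0 CPM in the S1 line and 102, 117 and 145 CPM in wild type. It was lower, with a log2 fold change of -1.83 ± 0.38 (adjusted p = 0.0158), but was not called by DESeq2 (adjusted p = 0.201) or without wild-type replicates 2 or 3 or S1 line replicates 1 or 2. AT1G15330, a cystathionine beta-synthase domain protein, was lower, at -1.55 and HMT-1, a homocysteine methyltransferase, at -1.48. AT1G15330 kept its call only without wild-type replicate 3 among the libraries left out (adjusted p up to 0.165), and HMT-1 only without replicate 1 of either group (up to 0.146).

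Another 2 of the 15 lowest were FLA13 and KCS19. FLA13, a fasciclin-like arabinogalactan protein of the cell surface, had 20.8, 20.9 and 25.3 CPM in the S1 line and 53.7, 54.0 and 61.8 CPM in wild type, a log2 fold change of -1.34 (adjusted p = 0.0190). KCS19, an enzyme of very long chain fatty acid synthesis, had 9.42, 13.5 and 9.19 CPM in the S1 line and 23.1, 29.5 and 26.8 CPM in wild type, a log2 fold change of -1.31 (adjusted p = 0.0246). In the list of expansins, which loosen cell walls during growth, 1 of 9 was lower and 0 higher, beside 0.952% and 1.63% of all genes. EXPA4 had 9.06, 6.12 and 5.36 CPM in the S1 line and 14.1, 10.9 and 17 CPM in wild type, lower, at -1.02 (adjusted p = 0.0247). The expansin median was -0.70, and 8 of the 9 had every S1 line library below every wild-type library, against 12% of all genes tested.

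FLA13 lost its call without wild-type replicates 2 or 3 or S1 line replicates 1 or 2 (adjusted p up to 0.109), and KCS19 without each library but wild-type replicate 1 (up to 0.101). EXPA4 kept its call without wild-type replicate 2 or S1 line replicate 1 and lost it without the others (up to 0.134). Of the expansins 6 had an unadjusted p under 0.05, DESeq2 and limma-voom each called 1 lower and 0 higher, and the fit of 6 libraries called 6 of 8 tested lower, against 2.76% of all genes. Without a filter on low counts 3 of the 9 were lower, beside 1.06% of all genes. Without S1 line replicate 1 edgeR called 2 expansins lower, beside 122 of all 18779 genes tested. Of 12 cell division genes tested 0 were called by edgeR, DESeq2 or limma-voom, and 1 had an unadjusted p under 0.05. Their median was -0.38.

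Single calls came from other lists. RD22, a drought-responsive gene, had 42.6, 33.9 and 34.8 CPM in the S1 line and 64.9, 78.0 and 106 CPM in wild type, lower, at -1.15 (adjusted p = 0.00399) and called in every setting. PP2CA, a phosphatase that holds back abscisic acid signalling, was lower, at -0.43 (adjusted p = 0.047), a call lost in 10 of 16 other settings. Both were among 27 abscisic acid, drought and cold genes, with a median of -0.001 and 0 higher, also by DESeq2 and limma-voom. At an unadjusted p under 0.05 there were 10 of the 27, beside 2992 of all 18388 genes tested. GRP8, an RNA-binding protein of the clock's output, had 107, 126 and 113 CPM in the S1 line and 66.4, 65.1 and 45.4 CPM in wild type, higher by 0.96 (adjusted p = 0.00362), the 1 gene called of 26 clock genes in each of the settings without 1 library. CRT1A, a calreticulin of the endoplasmic reticulum, was lower, at -0.80 (adjusted p = 0.0113), and the call was lost without wild-type replicate 3 or S1 line replicate 2 (up to 0.0712). SFP1, a sugar carrier of the ERD6 family, was higher by 0.61 (adjusted p = 0.0308), a call kept only without wild-type replicate 1 among the libraries left out (up to 0.14).

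Other lists had members that leaned one way without calls. All 39 light harvesting and photosystem genes had negative log2 fold changes, with a median of -0.28. By edgeR 0 were called, 2 had an unadjusted p under 0.05, DESeq2 called 1 lower and limma-voom 0, and under library totals 4 of the 39 were positive. Their summed level was 145942, 122394 and 143437 CPM in the S1 line and 157928, 173637 and 196575 CPM in wild type, without overlap. Of 31 autophagy genes 26 had positive log2 fold changes, with a median of 0.17. By edgeR, DESeq2 and limma-voom 0 were called, and 6 had an unadjusted p under 0.05, beside 2992 of all 18388 genes tested. Without wild-type replicate 1 or 3, edgeR called 1 autophagy gene higher. Cytosolic ribosomal proteins had a median of -0.31 over 25 genes, 22 of them negative and 16 at an unadjusted p under 0.05. The 1 called was RPL10C, higher by 0.78 (adjusted p = 0.0265), which lost its call without wild-type replicates 2 or 3 or S1 line replicates 2 or 3 (up to 0.145). DESeq2 called 1 ribosomal protein gene lower as well.

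The remaining lists held few calls. Of 14 genes of asparagine, nitrate and ammonium assimilation, 0 were called by edgeR, DESeq2 or limma-voom, 5 had an unadjusted p under 0.05 and the median was -0.26, and edgeR called 1 higher without S1 line replicate 3. Of 23 beta-oxidation and glyoxylate cycle genes, 0 were called by edgeR or limma-voom, 1 was higher and 2 lower by DESeq2, and 9 had an unadjusted p under 0.05. The median of those 23 was 0.06, and 1 was higher without wild-type replicate 1. Genes of Rubisco, heat shock, anthocyanins, glucosinolates, iron and phosphate had 0 calls by edgeR, DESeq2 and limma-voom. At an unadjusted p under 0.05 they had 0 of 5, 2 of 10, 3 of 8, 6 of 22, 3 of 13 and 1 of 5 genes in that order. Of all 18388 genes tested 2992 met that threshold. Without S1 line replicate 3, edgeR called 1 glucosinolate gene higher.

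**Figure D4:**
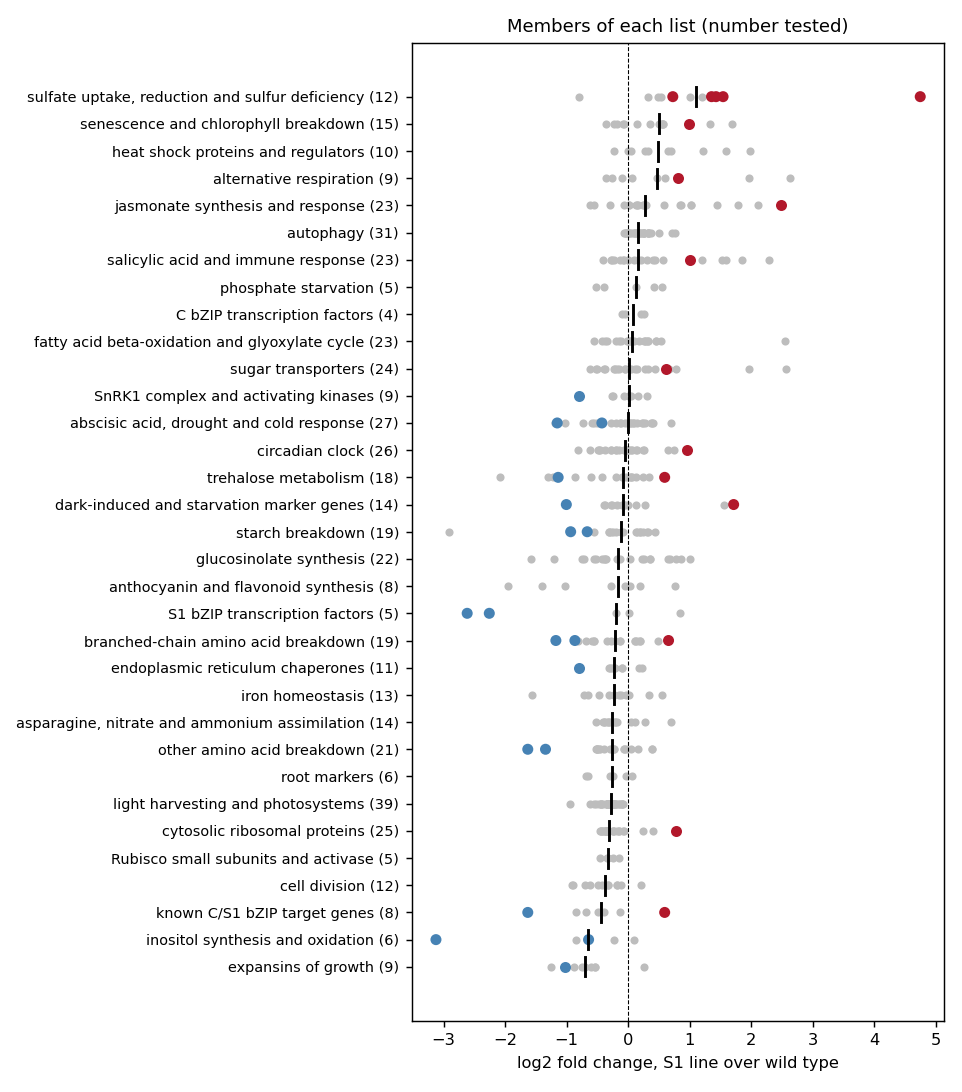
Log2 fold change, S1 line over wild type, of every tested member of the lists with at least 3 genes tested, with called genes in red (higher) or blue (lower), medians as bars and the median of all genes as a dashed line. Sulfate uptake and reduction has the highest median, 1.11, and expansins the lowest, -0.70, and the farthest point of the sulfur list is ATSDI1, whose fitted value is not a bound.

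The CACGTG motif stood before 25 of the 173 distinct genes lower in the S1 line, 14.5%, and before 19 of the 299 higher genes, 6.35%. Over all promoters of genes tested the share was 7.4%, 1349 of 18226, and over all annotated genes 5.37%. ACTCAT stood before 13.3% of lower genes, 13.4% of higher genes and 11.8% of genes tested. GACGTC stood before 1.73%, 3.34% and 2.49% in the same order, GACGTG before 8.67%, 6.02% and 6.34%, and the ACGT core before 50.9%, 54.2% and 44.5%. Among the named lower genes, CACGTG stood before AT4G37220, AT1G15330, MIPS1, BAM9, PP2CA and CRT1A, and ACTCAT before ERD5, FLA13, DIN9 and CRT1A. Among the named higher genes, CACGTG stood before DIN11, and ACTCAT before CYP76C2, DTX1, SQE6, AT1G54575, M17 and TRE1. A match of letters is a description and no site of binding.

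The SnRK1 line, set against its own wild type after 6 d of Est, differed in far more genes, 6514 higher (35.4%) and 6068 lower (33%). The 2 comparisons share no library but differ in the days of Est, so values are given side by side. Of the 299 genes higher in the S1 line, 168 were higher in the SnRK1 line (56.2%) and 53 lower (17.7%). Of the 175 lower in the S1 line, 93 were lower there (53.1%) and 46 higher (26.3%). ERD5 had a log2 fold change of -1.63 in the S1 line and -2.11 in the SnRK1 line, HGO -1.34 and -3.33, DIN3 -1.18 and -2.76, and GDPD2 -1.69 and -2.88. ASN1 had -0.40 and -2.89, BCAT2 -0.13 and -3.00, and DIN1 0.00 and -2.72. MIOX4 had -3.13 in the S1 line and 0.46 in the SnRK1 line, TPPA -1.14 and 0.24, MIPS1 -0.64 and 1.74, and EXPA4 -1.02 and 1.78. APR3 was at 1.54 in the S1 line and 3.37 in the SnRK1 line, SULTR1;2 at 1.36 and -0.94, SUC7 at 3.49 and 6.36, MPL1 at 2.85 and -0.70, and LOX2 at 2.49 and 6.28. The SnRK1 line values of MIOX4, TPPA and MPL1 were not called by edgeR (adjusted p = 0.116, 0.214 and 0.136). bZIP1 was lower in both lines, at -2.62 and -1.55, and bZIP11 had -0.20 in the S1 line and 5.66 in the SnRK1 line.

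Some called genes stood side by side on a chromosome, which was seen after the values were known. On chromosome 5 HGO, AT5G54090, MAMI, AT5G54130, AT5G54145 and OMT1 were all lower, 6 of a window of 21 tested genes in chromosome order. MAMI, a membrane protein induced by mannitol, had 46.5, 45.8 and 54.5 CPM in the S1 line and 90.5, 116 and 108 CPM in wild type, a log2 fold change of -1.09 ± 0.12 (adjusted p = 0.00026). AT5G54130, a calcium-binding protein of the endonuclease, exonuclease and phosphatase family, had 11.1, 11.3 and 9.50 CPM in the S1 line and 22.4, 31.6 and 33.2 CPM in wild type, a log2 fold change of -1.43 ± 0.19 (adjusted p = 0.000753). OMT1, a caffeate and flavonol O-methyltransferase, was at -1.18 on the log2 scale, AT5G54090 at -1.17 and AT5G54145 at -1.43. Their neighbours TAT7, at -0.51, ILL3, at -0.74, and AT5G54100, at -0.08, were not called. The 6 calls held without each library. Another annotated gene overlaps 27.4% of the exon length of HGO and 24.1% of that of AT5G54090, the next tested gene. Reads in such overlaps cannot be told apart without their strand, so the calls of HGO and AT5G54090 may not be separate. Windows were moved along by 1 gene at a time, 18054 in all, of which 14866 held 0 genes called lower. The 12 windows with 6, the most of any, overlap and are this 1 place. It lies 1.89 to 1.93 Mb from bZIP1, the knockout locus on the same chromosome, by TAIR10.1 positions. Whether the DNA of this stretch differs between the line and its wild type was not tested, for HGO as for the other 5 genes. Nor was it tested for other called genes on the chromosome of bZIP1, such as TPPA (AT5G51460) and ATSDI1 (AT5G48850).

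On chromosome 3 the cytochrome P450 genes CYP71B19, CYP71B20, CYP71B23, CYP71B3, CYP71B24, CYP71B26 and CYP71B36 were higher, by 0.61 to 1.09 on the log2 scale, 7 in a window of 21. CYP71B19 had 53.5, 50.3 and 48.6 CPM in the S1 line and 23.5, 29.5 and 24.2 CPM in wild type. CYP71B3 had 123, 122 and 123 CPM in the S1 line and 69.6, 83.5 and 88.3 CPM in wild type. Their relatives CYP71B22, CYP71B4, CYP71B34 and CYP71B35 between them had 0.17, 0.37, -0.12 and -0.15 and were not called. Nor were CYP71B17 and CYP71B37, next to either end, at 0.19 and -0.47. The 9 windows with 7 genes called higher, the most of any of the 18054, overlap and are this 1 place, 13.4 to 13.5 Mb from bZIP53. The DNA was not tested here either. CYP71B19 shares 20.9% of its 50-base stretches with another gene, and CYP71B20 shares 19.5%. CYP71B19 kept its call without each library, while the calls of CYP71B20 and CYP71B36 were lost without any 1 library (adjusted p up to 0.147 and 0.153). DESeq2 did not call CYP71B36 (adjusted p = 0.0827) and called the other 6. CYP71B3 lost its call without wild-type replicates 1 or 2 or S1 line replicate 2 (up to 0.0516), and CYP71B23 without those or S1 line replicate 1 (up to 0.128). CYP71B24 kept its call only without S1 line replicate 3 (up to 0.0942) and CYP71B26 only without S1 line replicate 1 (up to 0.0787).

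**Figure D5:**
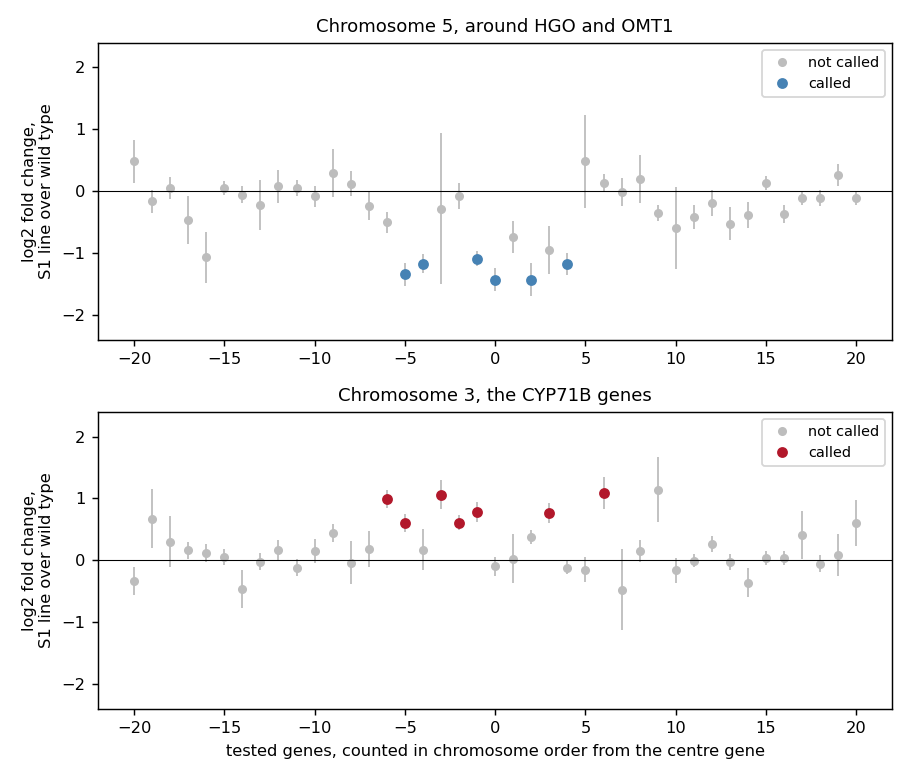
Log2 fold change, S1 line over wild type, with its standard error, of tested genes in chromosome order around 2 groups of neighbours, on chromosome 5 (top) and chromosome 3 (bottom), with called genes in colour. The 6 called genes on chromosome 5 lie between -1.43 and -1.09 and the 7 on chromosome 3 between 0.61 and 1.09, with uncalled genes among them and around them.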

How the data were processed

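Per the labels' protocols, mRNA libraries were made from 5 µg of total RNA of seedlings. The submitters' processing notes name TAIR10 as the genome and list Bowtie 0.12.8, SAMtools 0.1.18 and FastQC. For the read counter, its use of strand and its treatment of multiple hits, the settings were not given in the sources used here. Whole-number counts were deposited: the authors gave 1 raw count per gene and library. No normalisation by the authors was used.

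Counts of all 12 libraries entered 1 quasi-likelihood fit in edgeR 4.0.16 (R 4.3.3) with group as the only term and TMM scaling, after filterByExpr with a minimum count of 10. The contrast was S1 line minus its wild type. The common biological coefficient of variation was 13.2%. Between libraries of a group, Pearson's r of log CPM over genes was 0.977 to 0.986, and no pair agreed within counting noise (2.65 to 9.82 chi-square units a gene). Standard errors come from the F statistic, and the 95% intervals of targeted genes take 8 residual degrees of freedom. A floor of 3 counts covers counting error only.

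Gene names, exon overlap and promoters came from RefSeq's TAIR10.1 annotation, matched by locus code for 28009 of 28775 genes. The release differs in name from that in the notes. Motif shares run over genes with an annotated promoter, and a window of 250 bases before the start was read.

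The members, the 35 gene lists and the rules were chosen with earlier results of these data known. Named genes were the 5 targeted genes and up to 6 called members of each list. From the called genes that reach 5 CPM on average in their higher group and whose groups do not overlap, the 15 with the highest and the 15 with the lowest log2 fold change were added. The 15 lowest hold bZIP1 and bZIP53 and also AT5G49448 and AT3G62422, which have the same counts. List members that were not called may also be named with their values. Neighbouring genes and the gene families of the closing section were chosen after their values were seen. Alternatives were other size factors, library totals, DESeq2 1.42.0, limma-voom (limma 3.58.1), other filters on low counts, the 6 libraries alone, a replicate block, each library left out, and organelle or overlapping genes left out. The fits were tested on simulated data. Python 3.11.15 with matplotlib 3.10.9 made the plots.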

Additional observations from a re-analysis of the deposited data

How the results depend on the processing

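Over 16 other settings, 24 of the 56 named genes that were called kept their calls in each setting that tested them. Both numbers, and the values compared next, include AT5G49448 and AT3G62422, which repeat the counts of bZIP1 and bZIP53. Of 915 values compared, 772 stayed on the same side of the threshold, 143 lost their call and 0 calls reversed. Values that were not called could change sign. With 1 library left out the log2 fold change was -0.03 to 0.10 for bZIP2 and -0.62 to 0.03 for bZIP11. The cause of the lost calls was not tested. Library totals alone gave 558 genes higher and 102 lower, and the 6 libraries of the S1 experiment alone 578 higher and 451 lower, 292 and 170 of them shared with the calls over 12 libraries. Without a filter on low counts there were 437 higher and 259 lower. Left out in turn, single libraries gave 91 to 230 genes higher and 39 to 160 lower. Leaving out genes with overlapping exons or identical counts gave 219 higher and 137 lower. A threshold of 2-fold left 149 and 59, and an adjusted p under 0.01 left 91 and 43. Replicate numbers are shared by the groups. The deviations of same-numbered libraries correlated at 0.043, -0.028 and -0.092, and those of differently numbered libraries at -0.113 to 0.142. A pairing by number was therefore not shown, but so few libraries cannot exclude one. With a replicate block in the 6 libraries the counts were 549 higher and 405 lower. Genes under about 10 counts per library, such as bZIP11, bZIP44 and ATSDI1, are limited by depth.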

Other observations

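Gene families not described above were grouped by their annotated names after the values were seen, so their counts are descriptions. Of all 18388 genes tested, 2992 had an unadjusted p under 0.05. Of 52 WRKY transcription factors tested, 7 were higher in the S1 line and 1 was lower, with a median log2 fold change of 0.19, where 1.63% of all genes tested were higher and 0.952% lower. WRKY45 had 41.8, 41.3 and 33.8 CPM in the S1 line and 11.4, 13.3 and 8.39 CPM in wild type, and WRKY26 had 84.5, 116 and 107 CPM in the S1 line and 48.3, 45.2 and 40.2 CPM in wild type, without overlap. WRKY22 was the lower one, at -0.60, and lost its call without any 1 library (adjusted p up to 0.139). WRKY45 lost its call without wild-type replicate 3 (up to 0.0614), and WRKY26 without that, wild-type replicate 2 or S1 line replicates 2 or 3 (up to 0.104). Without wild-type replicate 3, 0 WRKY genes were called by edgeR, against 14 at an unadjusted p under 0.05 in all libraries and 8 higher by DESeq2. The count was 1 without wild-type replicate 2, 2 without S1 line replicate 2 and 3 without S1 line replicate 1. Of 57 NAC factors 5 were higher and 0 lower (17 at an unadjusted p under 0.05, 0 lower by DESeq2 or limma-voom), among them NAC047, a factor of senescence and waterlogging responses, at 1.80, and ATAF2 at 0.97. Without 1 library 2 to 5 NAC factors were higher, 3 without wild-type replicate 2 or 3 and 2 without wild-type replicate 1 or S1 line replicates 2 or 3.

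Of 99 UDP-glycosyltransferases 9 were higher and 1 lower, where 1.63% of all genes tested were higher and 0.952% lower. DOGT1, which attaches glucose to a fungal toxin and to brassinosteroids, had 27.5, 36.9 and 26.5 CPM in the S1 line and 10.6, 11.4 and 6.0 CPM in wild type, and UGT73B5 86.8, 96.7 and 78.4 CPM in the S1 line and 38.4, 34.7 and 31.0 CPM in wild type. Of 31 glutathione transferases of the tau and phi classes 5 were higher, with GSTU24 at 1.04, a call lost without wild-type replicate 3 or S1 line replicate 2 (adjusted p up to 0.0645). Of 42 MATE efflux carriers 4 were higher. Left out in turn, single libraries gave 5 to 8 glycosyltransferases, 1 to 6 glutathione transferases and 3 to 5 MATE carriers higher. The lowest for glutathione transferases was without S1 line replicate 2, with 2 without wild-type replicate 2 and 3 without wild-type replicate 3 or S1 line replicate 1, and the 5 glycosyltransferases were those without wild-type replicates 2 or 3 or S1 line replicate 1.

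Lower genes outside the lists included fasciclin-like arabinogalactan proteins, 4 of 11 against 0.952% of all genes, each of the 11 with a negative log2 fold change, 1 of them positive under library totals. The count was 0 without wild-type replicates 2 or 3 or S1 line replicate 2, and 1 without S1 line replicate 3, by edgeR, with 9 at an unadjusted p under 0.05 in all libraries and 4 lower by DESeq2. Of 21 xyloglucan endotransglucosylases, which remodel cell walls, 1 was higher and 1 lower. XTH24 had 862, 858 and 821 CPM in the S1 line and 507, 407 and 267 CPM in wild type, a log2 fold change of 1.11 (adjusted p = 0.0181), and no gene of the family was higher without wild-type replicates 2 or 3 or S1 line replicates 1 or 2. XTH9 had 13.6, 14.8 and 17.3 CPM in the S1 line and 29.3, 27.8 and 34.4 CPM in wild type, at -1.0 on the log2 scale (adjusted p = 0.00329). PIN7, an auxin efflux carrier, had 44.2, 41.4 and 43.5 CPM in the S1 line and 84.8, 85.4 and 74.4 CPM in wild type, a log2 fold change of -0.92, and was the 1 of 4 PIN genes called without each library too. TMT1, a vacuolar sugar carrier, had 102, 112 and 136 CPM in the S1 line and 222, 206 and 201 CPM in wild type, and SIP2, a galactosidase of raffinose breakdown, 1936, 1756 and 2166 CPM in the S1 line and 5062, 4222 and 3157 CPM in wild type. TMT1 kept its call without each library, and SIP2 only without wild-type replicate 3 (adjusted p up to 0.16). GASA1, a gibberellin-regulated peptide gene, had 701, 588 and 626 CPM in the S1 line and 270, 166 and 180 CPM in wild type, higher by 1.63 on the log2 scale, against -4.92 in the SnRK1 line, a call lost without wild-type replicate 2 (adjusted p = 0.0586). PAP85, a vicilin-like storage protein gene, was higher by 1.84 in the S1 line, against -4.50 in the SnRK1 line, while 0 of 6 seed storage markers had enough counts to be tested.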
